A study of Mus musculus with 12 samples.

Results

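Egr1, Egr2, Egr3, Nr4a1, Nr4a2 and Nr4a3 encode transcription factors that are switched on within minutes of T cell receptor (TCR) signalling. Their chromatin was examined by ATAC-seq, in which a transposase inserts adapters into open DNA, in thymic invariant natural killer T (iNKT) cells. The members were all deposited 500 bp regions that overlapped one of these gene bodies (GENCODE vM21, mm10) or the 10 kb on either side, which gave 48 of 63309 regions. Egr1 (chr18:34859823-34864984, plus strand) had 7, Egr2 (chr10:67535475-67542188, plus strand) 7, Egr3 (chr14:70077203-70082614, plus strand) 6, Nr4a1 (chr15:101254269-101274795, plus strand) 14, Nr4a2 (chr2:57106830-57124003, minus strand) 5 and Nr4a3 (chr4:48045153-48086447, plus strand) 9. Each region is named by its gene and numbered upwards with the coordinate, so that Nr4a1_r1 has the lowest coordinate at Nr4a1. Egr2_r5, Egr2_r6 and Egr2_r7 were nearest to the start site of the neighbouring gene Ado, and Nr4a1_r13 and Nr4a1_r14 to that of Atg101, and both sets are kept as the rule placed them. The 12 libraries came from iNKT1 (CD122+, ICOS-), iNKT2 (ICOS+, Izumo1r+, CD138-) and iNKT17 (ICOS+, CD138+) cells of untreated C57BL/6 and Hivep3-/- mice, aged 8 to 9 weeks per the labels, with 2 libraries in each of the 6 groups. Hivep3-/- mice lack Hivep3, a large zinc finger protein that binds DNA and signalling adapters, and had been backcrossed to C57BL/6. Thymi were pooled, the subsets were sorted one by one, transposed together and sorted again on ICOS and CD138 alone, so that a library depends on the second sort for its purity. The titles number single mice while the protocol describes pools, and p-values measure the spread between these libraries.

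The Egr proteins are zinc finger factors that bind GC-rich DNA, and the Nr4a proteins are orphan nuclear receptors whose activity follows their amount rather than a ligand. TCR signals reach the Egr genes largely through serum response factor (Srf) and its Elk partners, which bind CArG boxes in the promoters, and reach the Nr4a genes through calcium, Mef2 and CREB. In iNKT cells, which are selected by strong agonist signals, Egr2 and Egr3 drive Zbtb16, the gene of the lineage factor PLZF, and the amount of Nr4a1 is widely used as a readout of TCR signal strength. Openness of a gene's regions need not follow its transcription, and RNA was not analysed here.

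Regions that differed between subsets, the most open promoter region of Egr2 and an intronic region of Nr4a2 that changed between genotypes are printed here as the 300 bases around the centre of each region on the plus strand of GRCm38.p6 (mm10), except that Egr2_r4 is cut to 273 bases so that it ends before an untranslated exon. Nr4a2_r4 was chosen after its values were seen. Capitals mark matches, on either strand, to the motifs searched: Egr (GCGTGGGCG), Nr4a (AAAGGTCA), the cAMP response element CRE (TGACGTCA) and its core (TGACG), AP-1 (TGANTCA), NFAT (TGGAAA), the CArG box, an E-box (CAGCTG), Runx (TGTGGT) and an NF-kB site (GGNNTTTCC).
Egr2_r4, chr10:67537293-67537565: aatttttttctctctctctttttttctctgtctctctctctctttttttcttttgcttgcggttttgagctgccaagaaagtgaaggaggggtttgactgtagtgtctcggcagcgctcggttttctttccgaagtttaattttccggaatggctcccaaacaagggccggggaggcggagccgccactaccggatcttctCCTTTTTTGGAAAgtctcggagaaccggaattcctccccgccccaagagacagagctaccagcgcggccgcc
Egr3_r2, chr14:70069200-70069499: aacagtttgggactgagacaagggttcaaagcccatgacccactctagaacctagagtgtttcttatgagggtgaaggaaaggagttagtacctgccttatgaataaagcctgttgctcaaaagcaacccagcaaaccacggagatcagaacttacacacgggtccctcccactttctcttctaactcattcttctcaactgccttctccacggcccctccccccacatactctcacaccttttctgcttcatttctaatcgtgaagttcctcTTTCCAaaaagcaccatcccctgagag
Nr4a1_r3, chr15:101247178-101247477: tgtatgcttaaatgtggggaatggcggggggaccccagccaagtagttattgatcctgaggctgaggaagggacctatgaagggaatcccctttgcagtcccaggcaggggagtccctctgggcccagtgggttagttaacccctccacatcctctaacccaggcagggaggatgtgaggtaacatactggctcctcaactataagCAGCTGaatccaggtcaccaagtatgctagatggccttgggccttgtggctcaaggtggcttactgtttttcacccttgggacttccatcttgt
Nr4a1_r4, chr15:101250244-101250543: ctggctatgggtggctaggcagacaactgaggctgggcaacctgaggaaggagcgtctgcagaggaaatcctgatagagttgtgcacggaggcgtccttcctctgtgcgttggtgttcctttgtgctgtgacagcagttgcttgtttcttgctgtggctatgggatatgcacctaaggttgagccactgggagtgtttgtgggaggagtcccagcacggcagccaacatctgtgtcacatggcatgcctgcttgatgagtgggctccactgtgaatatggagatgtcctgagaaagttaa
Nr4a2_r4, chr2:57116663-57116962: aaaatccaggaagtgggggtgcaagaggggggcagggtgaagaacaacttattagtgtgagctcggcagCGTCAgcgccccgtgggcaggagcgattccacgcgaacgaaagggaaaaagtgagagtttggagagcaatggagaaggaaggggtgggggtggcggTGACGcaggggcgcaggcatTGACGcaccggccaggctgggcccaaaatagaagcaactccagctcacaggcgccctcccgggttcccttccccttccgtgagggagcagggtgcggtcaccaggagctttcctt
Nr4a3_r7, chr4:48073406-48073705: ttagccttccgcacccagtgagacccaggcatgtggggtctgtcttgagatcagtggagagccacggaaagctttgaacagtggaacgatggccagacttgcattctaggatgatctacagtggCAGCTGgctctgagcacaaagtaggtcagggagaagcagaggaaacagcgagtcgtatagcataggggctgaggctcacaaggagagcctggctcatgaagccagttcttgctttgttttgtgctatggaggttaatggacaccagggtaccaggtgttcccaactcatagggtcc
Nr4a3_r9, chr4:48076684-48076983: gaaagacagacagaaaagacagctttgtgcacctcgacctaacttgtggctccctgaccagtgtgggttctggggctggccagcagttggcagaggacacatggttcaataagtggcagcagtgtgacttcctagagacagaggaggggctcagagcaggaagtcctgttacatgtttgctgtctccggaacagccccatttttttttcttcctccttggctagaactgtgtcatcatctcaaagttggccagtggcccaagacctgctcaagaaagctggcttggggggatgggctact

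Over their whole 500 bp, 4 of the 48 regions held a CArG box (8.33%, against 2.25% of all regions), and all 4 lay at Egr genes: Egr1_r6, Egr2_r4, Egr3_r3 and Egr3_r5. In Egr2_r4 the capital run is a CArG box that overlaps an NFAT match. Among the RefSeq promoter windows of GRCm38.p6, which run from 250 bases before to 50 after a start, 8 windows matched a member (5 of Egr2 and 1 of each Nr4a gene, none of Egr1 or Egr3 matched), and 4 of the Egr2 windows held a CArG box, against 1.63% of all windows. Windows of 1 gene can overlap, and how many distinct boxes these 4 windows hold was not counted. The CRE was found in Nr4a2_r3 alone (2.08% of the regions, against 1.55% of all regions). Its core was found in 17 of the 48 regions (35.4% against 27.3%), 4 of them among the 5 regions of Nr4a2, and Nr4a2_r4 held it 3 times within the bases shown. NFAT matches were in 17 regions (35.4% against 33.7%) and E-boxes in 13 (27.1% against 27.1%). Runx matches were in 9 regions (18.8% against 40.2%), AP-1 matches in 6 (12.5% against 15.9%), NF-kB matches in 3 (6.25% against 10.5%), Egr matches in 1 (2.08% against 0.643%) and Nr4a matches in 0 (2.23% of all regions). The member regions had a median GC content of 56.3%, against 50% over all regions. These matches are descriptions of the letters and were not tested.

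Most of these loci were open in every group. Values are log2 normalised insertions per kilobase, and a linear mean is the mean of the same values without the logarithm. The median of the linear means over the 12 libraries was 48.8 for the member regions and 15.2 for all regions. 45 of the 48 had a linear mean of at least 5, which counts as accessible here, in each of the 6 groups. The most open were Nr4a1_r6, in an Nr4a1 exon 4.4 kb from the start (linear mean 244), Nr4a3_r2 (220), Nr4a1_r2 (205) and Egr1_r6 (191), each above at least 99.1% of all regions. The least open was Nr4a3_r9 (5.56), above 13.3%.

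The libraries were first set against their labels. The promoters of the 6 iNKT1 markers were most open in iNKT1 cells and those of the 6 iNKT17 markers in iNKT17 cells, in both genotypes. Of the 6 iNKT2 markers, 3 were most open in iNKT2 cells of either genotype, and Icos, Il17rb and Gata3 differed little between subsets. B cell and myeloid markers had no promoter region in the table, nor did Rag1, Rag2 and Cd8b1 of early thymocytes. The other 3 early thymocyte markers were present. Cd24a and Lef1 were most open in iNKT2 cells, with linear means of 14.7 and 143 in C57BL/6 and 15.9 and 123 in Hivep3-/- mice, and Itm2a in iNKT1 cells. Summed linear means of the iNKT1 markers were 284 in C57BL/6 iNKT2 and 233 in Hivep3-/- iNKT2 libraries, and 652 and 649 in iNKT1 libraries. The targeted gene, Hivep3, had 21 regions, of which 20, 18 and 12 could be tested in iNKT1, iNKT2 and iNKT17 cells. None was called between genotypes at 3-fold by limma (5, 3 and 5 had an unadjusted p under 0.05), and since the sources used here do not say which part is deleted, this does not check the labels. Read depth was not used here. The number of distinct low values, which grows with depth, was 227 and 491 in Hivep3-/- iNKT1, 139 and 170 in C57BL/6 iNKT1, 91 and 118 in Hivep3-/- iNKT2, 219 and 159 in C57BL/6 iNKT2, 85 and 73 in Hivep3-/- iNKT17 and 142 and 134 in C57BL/6 iNKT17 libraries. This count was thus higher in Hivep3-/- than in C57BL/6 libraries of iNKT1 and lower in those of the other subsets.

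The locus signal, the log2 of the mean linear value over a gene's regions, was highest at Egr1 (6.56 to 6.79) in all libraries but those of Hivep3-/- iNKT17 cells, where Nr4a1 was higher. It was lowest at Nr4a2 (4.30 to 5.46) or Egr3 (5.25 to 5.68). Egr1, the fastest of these genes to respond, varied little: iNKT1 cells of C57BL/6 mice had a mean of 6.60 ± 0.05 (SD, n = 2), iNKT2 cells of 6.61 ± 0.05 and iNKT17 cells of 6.69 ± 0.08, and none of its 3 subset comparisons passed an adjusted p of 0.1. Egr2 was highest in iNKT1 cells (5.83 and 5.85) and lower in iNKT2 (5.73 and 5.67) and iNKT17 cells (5.72 and 5.62). It fell by 0.14 on the log2 scale from iNKT1 to iNKT2 (SE 0.05, limma adjusted p = 0.0538) and by 0.17 to iNKT17 (SE 0.05, limma adjusted p = 0.0205), while its iNKT2 and iNKT17 values overlapped. Its signal includes the regions nearest to Ado. From iNKT1 to iNKT2, Egr2_r2 in the gene and Egr2_r7 near Ado passed (-0.49 and -0.38, limma adjusted p = 0.0304 and 0.00568). The most open region, Egr2_r4, differed by -0.02. With no region left out as too low, 54.1% of all regions passed that comparison. Egr3 ran the other way in iNKT2 cells: its libraries measured 5.68 and 5.65 in iNKT2, 5.46 and 5.42 in iNKT1 and 5.31 and 5.26 in iNKT17 cells. All 3 of its comparisons passed, the widest being iNKT17 minus iNKT2 (-0.38, SE 0.05, limma adjusted p = 0.000243).

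In C57BL/6 mice the 3 Nr4a loci had their highest means in iNKT17 cells. For Nr4a1, the receptor known as Nur77, the C57BL/6 libraries measured 5.99 and 6.11 in iNKT1, 6.09 and 6.08 in iNKT2 and 6.50 and 6.61 in iNKT17 cells. The iNKT17 level exceeded that of iNKT1 by 0.50 (SE 0.06, limma adjusted p = 9.83e-05) and that of iNKT2 by 0.47 (SE 0.06, limma adjusted p = 0.000241), and the other 2 subsets did not differ beyond their spread. Nr4a2, or Nurr1, measured 4.61 and 4.68 in iNKT1, 4.30 and 4.53 in iNKT2 and 4.94 and 5.19 in iNKT17 cells, with iNKT17 above iNKT1 by 0.42 (SE 0.11, limma adjusted p = 0.0135) and above iNKT2 by 0.65 (SE 0.11, limma adjusted p = 0.00148). Nr4a3, or Nor1, had a narrower range, 5.94 and 6.10, 5.92 and 5.95, and 6.13 and 6.20 in the same order, and passed only between iNKT17 and iNKT2 (0.23, SE 0.07, limma adjusted p = 0.025). Subset differences at this threshold were common, with 46.1% of 15405 gene loci called for iNKT2 minus iNKT1, 49% for iNKT17 minus iNKT1 and 43.5% for iNKT17 minus iNKT2, against 2, 4 and 4 of the 6 members. Without replicate 2 of C57BL/6 iNKT17, the iNKT17 minus iNKT1 calls of Egr2, Egr3 and Nr4a2 and the iNKT17 minus iNKT2 call of Nr4a3 were lost, and the iNKT2 minus iNKT1 call of Egr2 was lost without either C57BL/6 iNKT1 library or C57BL/6 iNKT2 replicate 2. The Egr3 call was also lost without C57BL/6 iNKT1 replicate 1 and the Nr4a3 call without C57BL/6 iNKT2 replicate 1.

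**Figure D1:**
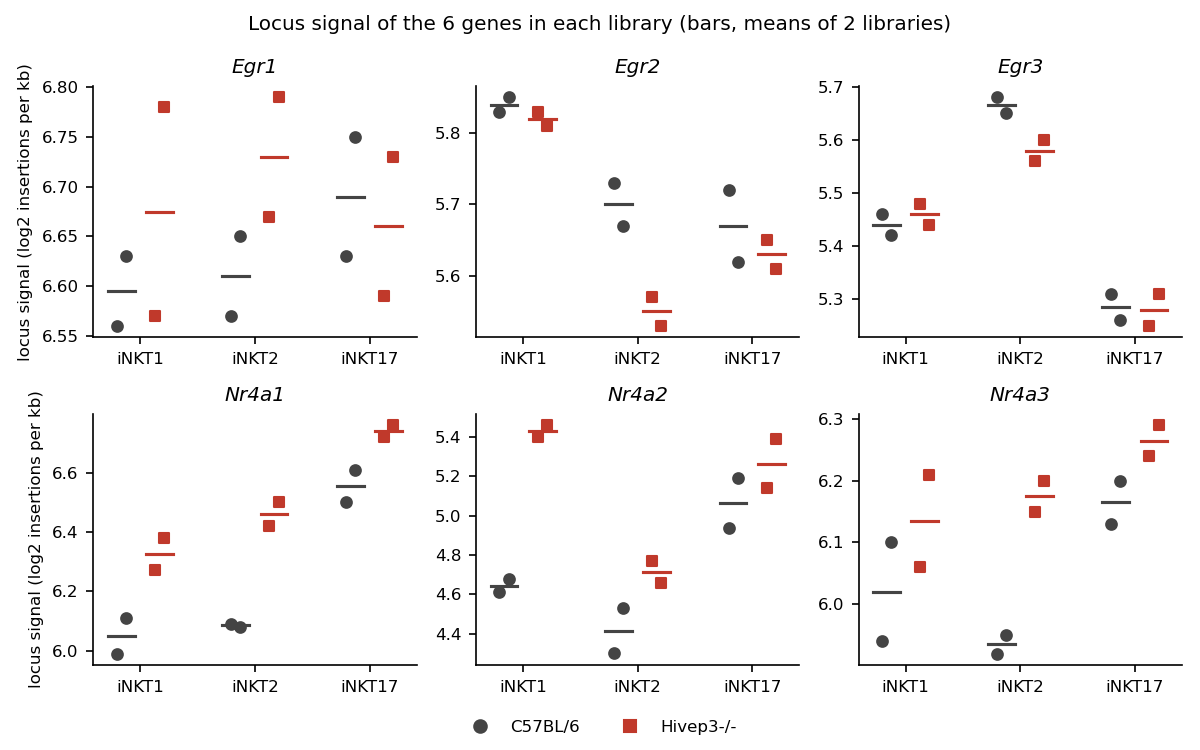
Locus signal (log2 normalised insertions per kilobase, each panel on its own scale) of each gene in the 12 libraries, by subset, with circles for C57BL/6, squares for Hivep3-/- and bars for the mean of 2 libraries. Both Hivep3-/- libraries lie above both C57BL/6 libraries for Nr4a1 in each subset and for Nr4a2 in iNKT1 and iNKT2 cells. The same holds for Nr4a3 in iNKT2 and iNKT17 cells and for Egr1 in iNKT2 cells. In iNKT2 cells they lie below for Egr2 and Egr3, whose values lie close together in iNKT1 and iNKT17 cells. How many of all gene loci separate in this way was not counted.

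Single regions counted as called between subsets when the change reached 3-fold and its adjusted p was under 0.1. In C57BL/6 cells 2 of 47 tested member regions were called for iNKT2 minus iNKT1, 7 of 48 for iNKT17 minus iNKT1 and 6 of 47 for iNKT17 minus iNKT2, where 16%, 20.5% and 16.2% of all tested regions were called. In Hivep3-/- cells the counts were 4 of 48, 4 of 48 and 4 of 47, against 17.3%, 19.3% and 15.6%. Called in the same direction in both genotypes were 2, 4 and 4 regions, against 11.4%, 16% and 12.2% of the regions tested in both, and these came down to 6 regions.

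Nr4a1_r4, 3.9 kb before the start of Nr4a1 (chr15:101250144-101250643, intergenic), was least open in iNKT1 cells. Nr4a1_r4 measured 2.67 and 3.32 in iNKT1, 5.18 and 5.08 in iNKT2 and 5.46 and 5.37 in iNKT17 cells of C57BL/6 mice. It measured 3.00 and 2.81 in iNKT1, 5.72 and 5.82 in iNKT2 and 5.67 and 5.51 in iNKT17 cells of Hivep3-/- mice. The iNKT1 libraries did not overlap those of the other subsets. Compared with iNKT1, the log2 difference was 2.14 (SE 0.18, limma adjusted p = 9.78e-07) in iNKT2 and 2.42 (SE 0.18, limma adjusted p = 1.58e-07) in iNKT17 cells of C57BL/6 mice, and 2.86 and 2.69 (SE 0.18 each) in Hivep3-/- mice. Its sequence, printed above, held none of the motifs searched.

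Nr4a1_r3, 6.9 kb before the start (chr15:101247078-101247577, intergenic), was open in all subsets but most in iNKT17 cells. C57BL/6 libraries gave Nr4a1_r3 values of 4.43 and 4.92 in iNKT1, 4.64 and 4.55 in iNKT2 and 6.36 and 6.63 in iNKT17 cells. Hivep3-/- libraries gave 4.82 and 5.16 in iNKT1, 4.62 and 5.27 in iNKT2 and 6.67 and 6.94 in iNKT17 cells. Every iNKT17 library lay above every other library. The difference from iNKT1 was 1.82 (SE 0.21, limma adjusted p = 7.39e-06) in C57BL/6 and 1.81 in Hivep3-/- cells, and from iNKT2 it was 1.90 and 1.86. Its printed bases hold an E-box.

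Nr4a3 held a pair of intronic regions with opposite patterns, about 3 kb apart. Nr4a3_r7, 28.4 kb into the gene (chr4:48073306-48073805), marked iNKT17 cells. The values of Nr4a3_r7 in C57BL/6 mice were 2.87 and 2.74 in iNKT1, 2.17 and 1.97 in iNKT2 and 4.69 and 4.81 in iNKT17 cells. The Hivep3-/- values were 2.69 and 3.00 in iNKT1, 1.86 and 2.52 in iNKT2 and 4.95 and 5.13 in iNKT17 cells. The iNKT17 libraries stood well apart, with differences of 1.95 (SE 0.23, limma adjusted p = 1.01e-05) from iNKT1 and 2.69 (SE 0.23, limma adjusted p = 9.75e-07) from iNKT2 in C57BL/6 cells, and 2.20 and 2.85 in Hivep3-/- cells. Like Nr4a1_r3, it holds an E-box.

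Nr4a3_r9, 31.7 kb into the gene (chr4:48076584-48077083), marked iNKT1 cells. Among C57BL/6 libraries, Nr4a3_r9 stood at 3.41 and 3.49 in iNKT1, -0.26 and 0.17 in iNKT2 and 1.18 and 1.11 in iNKT17 cells. Among Hivep3-/- libraries it stood at 3.79 and 3.69 in iNKT1, 1.74 and 0.44 in iNKT2 and 1.95 and 1.66 in iNKT17 cells. All iNKT1 libraries lay above all others. Relative to iNKT1, its difference was -3.50 (SE 0.38, limma adjusted p = 7.71e-06) in iNKT2 and -2.31 (SE 0.38, limma adjusted p = 0.000174) in iNKT17 cells of C57BL/6 mice, and -2.65 and -1.94 in Hivep3-/- mice. Between them, Nr4a3_r8 was open throughout, at 6.03 to 6.75.

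Egr1_r7, 5.45 kb from the start of Egr1 and beyond its end, was least open in iNKT2 cells. For Egr1_r7, C57BL/6 mice gave 4.52 and 5.07 in iNKT1, 3.34 and 3.83 in iNKT2 and 5.38 and 6.14 in iNKT17 cells. Without Hivep3, the region measured 5.09 and 6.07 in iNKT1, 3.59 and 3.83 in iNKT2 and 5.61 and 5.74 in iNKT17 cells. The iNKT2 libraries did not overlap the others. From iNKT2 to iNKT17 the difference was 2.17 (SE 0.31, limma adjusted p = 6e-05) in C57BL/6 and 1.97 (SE 0.31, limma adjusted p = 0.000143) in Hivep3-/- cells.

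Egr3_r2, 7.9 kb before the start of Egr3 (chr14:70069100-70069599, intergenic), was most open in iNKT2 cells, as the locus signal of Egr3 was. Egr3_r2 measured 3.57 and 3.87 in iNKT1, 4.33 and 4.27 in iNKT2 and 2.70 and 2.09 in iNKT17 cells of C57BL/6 mice. It measured 3.62 and 3.22 in iNKT1, 4.11 and 4.33 in iNKT2 and 2.44 and 2.28 in iNKT17 cells of Hivep3-/- mice. The order iNKT2, iNKT1, iNKT17 held without overlap in both genotypes. From iNKT2 to iNKT17 it fell by 1.91 (SE 0.23, limma adjusted p = 1.86e-05) in C57BL/6 and by 1.86 (SE 0.23, limma adjusted p = 2.49e-05) in Hivep3-/- cells.

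**Figure D2:**
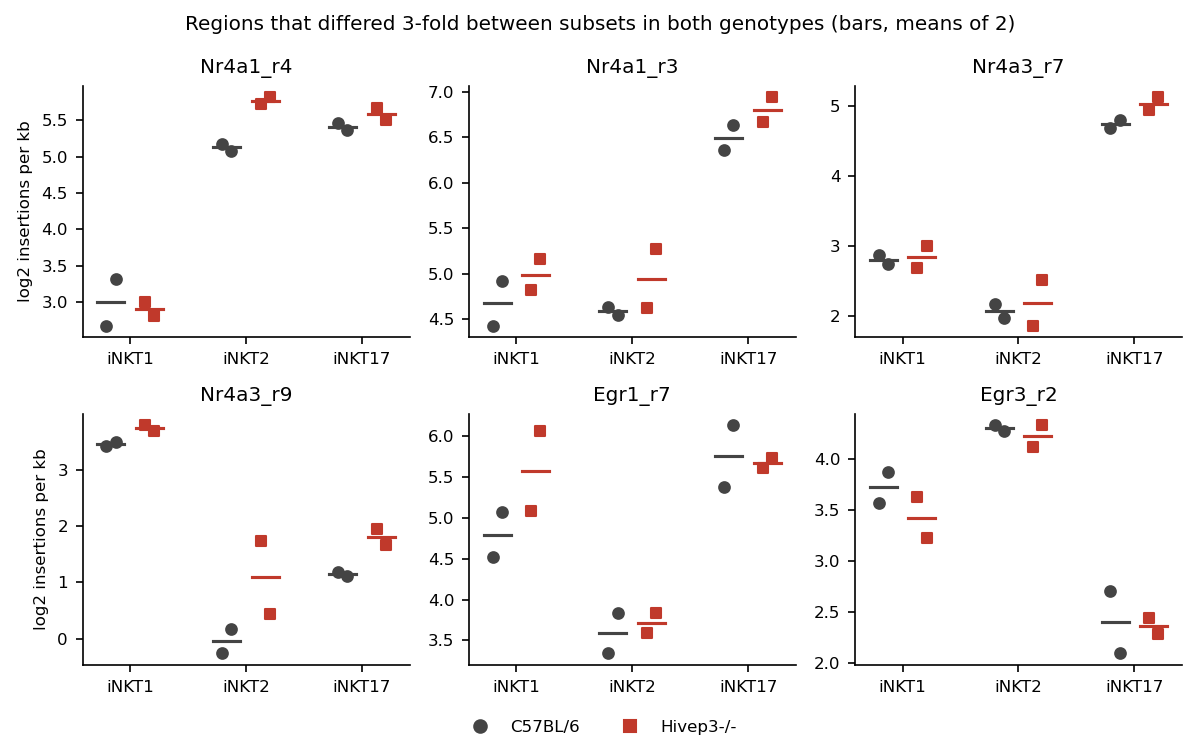
The 6 regions called at 3-fold between subsets in the same direction in both genotypes, in log2 normalised insertions per kilobase (each panel on its own scale), with circles for C57BL/6 libraries, squares for Hivep3-/- libraries and bars for means of 2. The 4 iNKT1 libraries lie lowest in Nr4a1_r4 and highest in Nr4a3_r9, and the 4 iNKT17 libraries lie highest in Nr4a1_r3 and Nr4a3_r7.

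The most open promoter regions differed less. The most open region within 1000 bp of a start site measured, over the 12 libraries, 7.13 to 7.88 at Egr1 (Egr1_r6), 6.88 to 7.34 at Egr2 (Egr2_r4), 6.45 to 6.77 at Egr3 (Egr3_r5), 7.15 to 7.50 at Nr4a1 (Nr4a1_r7, at a second start), 5.86 to 6.71 at Nr4a2 (Nr4a2_r3, at a second start) and 7.08 to 7.47 at Nr4a3 (Nr4a3_r3). None of these 6 regions was called between subsets at 3-fold in either genotype. Nr4a2_r5, the promoter at the gene's own start, was called in Hivep3-/- cells for iNKT2 minus iNKT1 (-1.64, SE 0.39, limma adjusted p = 0.00293). Without the fold threshold, Nr4a1_r7, Nr4a2_r3 and Nr4a3_r3 passed for iNKT17 minus iNKT1 in C57BL/6 cells. Their differences were 0.32, 0.41 and 0.31 (limma adjusted p = 0.00041, 0.00543 and 0.00125). With no region left out as too low, 57.2% of all regions passed that comparison. C57BL/6 libraries gave Egr1_r6 values of 7.18 and 7.60 in iNKT1, 7.41 and 7.76 in iNKT2 and 7.66 and 7.86 in iNKT17 cells. Hivep3-/- libraries gave 7.13 and 7.73 in iNKT1, 7.37 and 7.88 in iNKT2 and 7.41 and 7.75 in iNKT17 cells. In each of the 6 groups the second library lay above the first, so that differences between libraries of a group were as wide as those between subsets.

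The values of Egr2_r4 in C57BL/6 mice were 7.25 and 7.21 in iNKT1, 7.34 and 7.10 in iNKT2 and 7.26 and 7.07 in iNKT17 cells. The Hivep3-/- values were 7.26 and 7.15 in iNKT1, 7.10 and 7.08 in iNKT2 and 7.03 and 6.88 in iNKT17 cells. Among C57BL/6 libraries, Egr3_r5 stood at 6.56 and 6.45 in iNKT1, 6.77 and 6.68 in iNKT2 and 6.68 and 6.50 in iNKT17 cells. Among Hivep3-/- libraries it stood at 6.51 and 6.51 in iNKT1, 6.65 and 6.68 in iNKT2 and 6.51 and 6.49 in iNKT17 cells. At these promoters, both with a CArG box, 2 subset differences passed without the fold threshold. Egr3_r5 differed by 0.22 from iNKT1 to iNKT2 in C57BL/6 cells (SE 0.08, limma adjusted p = 0.038). Egr2_r4 differed by -0.25 from iNKT1 to iNKT17 in Hivep3-/- cells (SE 0.09, limma adjusted p = 0.0339). In both the libraries of the 2 subsets did not overlap. Such calls were common: with no region left out as too low, 54.1% and 56.1% of all regions passed these 2 comparisons.

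The comparison for which the libraries were made is that between genotypes. At 3-fold, limma called 0 member regions in iNKT1, iNKT2 and iNKT17 cells, where 1.15%, 1.68% and 0.271% of all tested regions were called. At an unadjusted p under 0.05 there were 17, 20 and 9 member regions, counts for which no share of all regions is given here. Nr4a1_r12 passed 3-fold in iNKT1 cells without replicate 2 of C57BL/6 or replicate 1 of Hivep3-/- iNKT1, and in iNKT2 cells without replicate 1 of Hivep3-/- iNKT2. Without the fold threshold, at an adjusted p under 0.1, 11 of 48 tested regions were higher in Hivep3-/- iNKT1 cells and 0 lower (5.49% and 3.93% of all tested regions). In iNKT2 cells 15 of 45 were higher and 2 lower (8.26% and 8.16%), and in iNKT17 cells 2 of 47 were higher and 0 lower (2.66% and 1.99%). All 11 in iNKT1, 14 of the 15 in iNKT2 and both in iNKT17 cells were Nr4a regions. The Nr4a regions had median changes of 0.27 (iNKT1), 0.36 (iNKT2) and 0.23 (iNKT17), the Egr regions of 0.01, -0.05 and 0.01, and all tested regions of -0.02, -0.00 and -0.01. The division into Egr and Nr4a regions was not tested. Without replicate 1 of C57BL/6 iNKT1 the 11 fell to 3 (Nr4a2_r3, Nr4a2_r4 and Nr4a1_r9) and without replicate 2 of Hivep3-/- iNKT1 to 4, and without replicate 1 or 2 of C57BL/6 iNKT2 the 15 fell to 9 or 8. The 15 fell to 10 without either one of the Hivep3-/- iNKT2 libraries. Over all tested regions, the share called in either direction dropped as well. It was 3.26% and 2.95% in iNKT1 cells without those iNKT1 libraries, in the order named. In iNKT2 cells it was 7.82% or 7.85% without C57BL/6 iNKT2 replicate 1 or 2. Without Hivep3-/- iNKT2 replicate 1 or 2 it was 10.5% or 11.4%. The 2 falls were lost without C57BL/6 iNKT2 replicate 1 or Hivep3-/- iNKT2 replicate 2, and that of Egr2_r7 also without C57BL/6 iNKT2 replicate 2, Hivep3-/- iNKT2 replicate 1 or either Hivep3-/- iNKT1 library. In iNKT17 cells 1 rise, Nr4a1_r6, remained without any one of the iNKT1 or iNKT17 libraries. With the replicate number of the titles as a block, 17 member regions were higher in iNKT1 cells and 7 were higher and 2 lower in iNKT17 cells, where 14.8% and 11.3% of all tested regions were called in either direction.

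**Figure D3:**
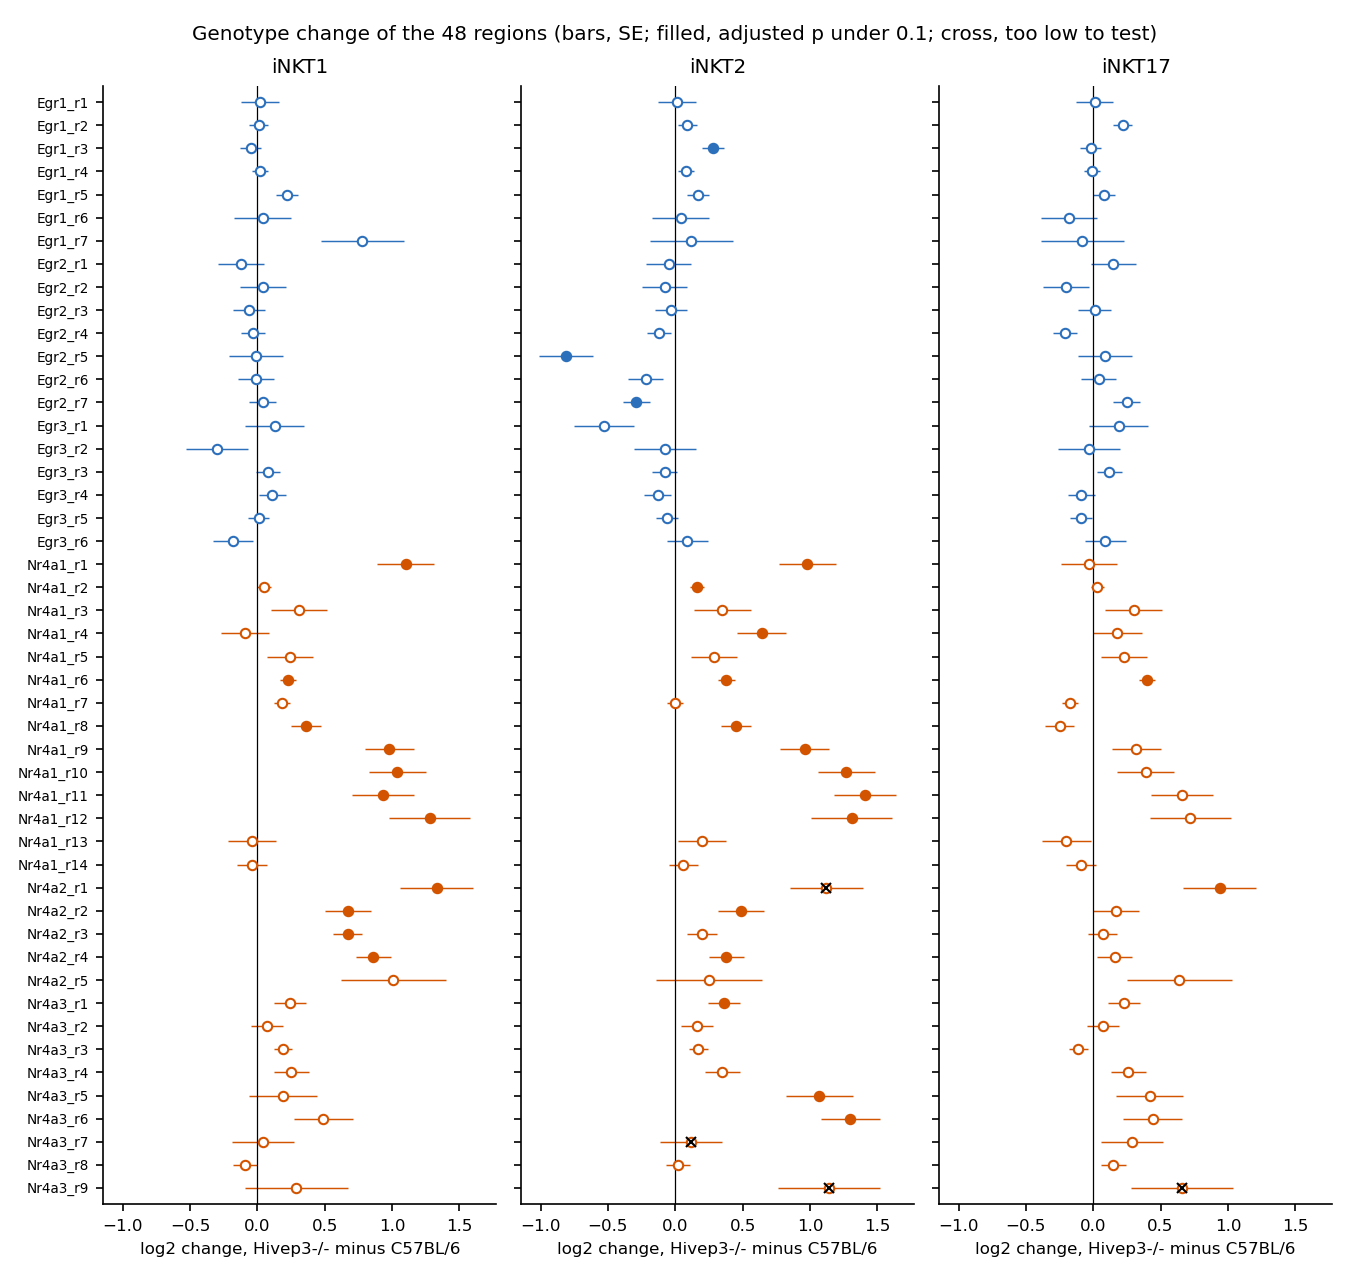
Log2 change (Hivep3-/- minus C57BL/6) with its SE for each of the 48 regions, one panel per subset, with Egr regions in blue and Nr4a regions in orange. Filled points had an adjusted p under 0.1, and crosses mark regions too low to test: the filled orange points lie to the right of 0, and the only filled points left of it are Egr2_r5 and Egr2_r7 in iNKT2 cells.

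At Nr4a1, 7 regions were called higher in Hivep3-/- iNKT1 and 9 in iNKT2 cells. Among them were 4 neighbours towards the 3′ end, Nr4a1_r9 to Nr4a1_r12, between 15.2 and 21.4 kb from the start. Nr4a1_r9 is intronic, Nr4a1_r10 covers the last exon, and Nr4a1_r11 and Nr4a1_r12 lie just beyond the gene. For Nr4a1_r12, C57BL/6 mice gave 3.59 and 4.40 in iNKT1, 4.51 and 4.67 in iNKT2 and 5.69 and 6.30 in iNKT17 cells. Without Hivep3, the region measured 4.86 and 5.68 in iNKT1, 5.59 and 6.21 in iNKT2 and 6.75 and 6.67 in iNKT17 cells. Both Hivep3-/- libraries exceeded both C57BL/6 libraries in each subset, and in each genotype the signal was highest in iNKT17 cells. Since the subsets were transposed together, they are not separate tests of the genotype. How many of all regions separate in this way was not counted. Nr4a1_r12 was higher by 1.28 in iNKT1 (SE 0.30, limma adjusted p = 0.0227) and by 1.31 in iNKT2 cells (SE 0.30, limma adjusted p = 0.0145), and its difference in iNKT17 cells, 0.72 (SE 0.30), had an adjusted p of 0.261.

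Nr4a1_r11 measured 4.05 and 4.41 in iNKT1, 4.29 and 4.64 in iNKT2 and 5.53 and 6.00 in iNKT17 cells of C57BL/6 mice. It measured 4.79 and 5.54 in iNKT1, 5.70 and 6.04 in iNKT2 and 6.47 and 6.38 in iNKT17 cells of Hivep3-/- mice. Again the genotypes did not overlap in any subset, with the limits given for Nr4a1_r12. Nr4a1_r11 rose by 0.93 in iNKT1 (SE 0.23, limma adjusted p = 0.0287) and by 1.41 in iNKT2 cells (SE 0.23, limma adjusted p = 0.00226), the largest called rise of a member in iNKT2 cells. The iNKT17 value was 0.66 (SE 0.23, limma adjusted p = 0.166). Nr4a1_r9 rose by 0.98 and 0.96 and Nr4a1_r10 by 1.04 and 1.27 in iNKT1 and iNKT2 cells, with differences of 0.32 and 0.39 in iNKT17 cells that did not pass. Between 26.8% and 43.4% of the bases of these 4 regions are marked as repeats in the assembly, a level over 20% that 24.5% of all regions share, and the effect of repeats on mapping was not tested.

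Nr4a1_r1, the farthest upstream region at 10 kb before the start, followed another course. C57BL/6 libraries gave Nr4a1_r1 values of 4.55 and 4.90 in iNKT1, 3.99 and 3.57 in iNKT2 and 5.39 and 5.61 in iNKT17 cells. Hivep3-/- libraries gave 5.85 and 5.79 in iNKT1, 5.11 and 4.42 in iNKT2 and 5.40 and 5.54 in iNKT17 cells. It was higher in Hivep3-/- cells by 1.10 in iNKT1 (SE 0.21, limma adjusted p = 0.00737) and 0.98 in iNKT2 cells (SE 0.21, limma adjusted p = 0.00994). In iNKT17 cells the ranges overlapped and the difference was -0.03. The most open region of the set, Nr4a1_r6, was called in each subset, by 0.23, 0.38 and 0.40 (SE 0.06 each, limma adjusted p = 0.0397, 0.0018 and 0.00677). Both Hivep3-/- libraries lay above both C57BL/6 libraries in each subset, with the limits given for Nr4a1_r12. The 2 regions nearest to Atg101 differed by -0.20 to 0.20 and were not called.

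At Nr4a2, 4 of the 5 regions were called higher in Hivep3-/- iNKT1, 2 in iNKT2 and 1 in iNKT17 cells. The values of Nr4a2_r3 in C57BL/6 mice were 5.98 and 6.00 in iNKT1, 5.86 and 6.06 in iNKT2 and 6.28 and 6.52 in iNKT17 cells. The Hivep3-/- values were 6.62 and 6.71 in iNKT1, 6.24 and 6.07 in iNKT2 and 6.39 and 6.55 in iNKT17 cells. This region lies at an internal start site and held the only CRE. It rose by 0.67 in iNKT1 cells (SE 0.11, limma adjusted p = 0.00252), and its differences of 0.20 in iNKT2 and 0.07 in iNKT17 cells did not pass. Nr4a2_r4, an intronic region printed above, measured 4.90 and 4.82 in C57BL/6 and 5.78 and 5.67 in Hivep3-/- iNKT1 cells, a rise of 0.86 (SE 0.13, limma adjusted p = 0.00171), and rose by 0.38 in iNKT2 cells (SE 0.13, limma adjusted p = 0.0852). Nr4a2_r2, at another internal start, rose by 0.67 in iNKT1 (SE 0.17, limma adjusted p = 0.0376) and by 0.49 in iNKT2 cells (SE 0.17, limma adjusted p = 0.0914).

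Nr4a2_r1 lies beyond the 3′ end of Nr4a2 and was weak. Among C57BL/6 libraries, Nr4a2_r1 stood at 2.15 and 2.40 in iNKT1, 0.68 and 1.29 in iNKT2 and 2.35 and 2.59 in iNKT17 cells. Among Hivep3-/- libraries it stood at 3.60 and 3.61 in iNKT1, 2.30 and 1.90 in iNKT2 and 3.37 and 3.46 in iNKT17 cells. It rose by 1.33 in iNKT1 cells (SE 0.27, limma adjusted p = 0.0108), the largest called rise of a member there, and by 0.94 in iNKT17 cells (SE 0.27, limma adjusted p = 0.094). In iNKT2 cells, where it was too low to be tested, the difference was 1.12. The promoter of the longest transcript, Nr4a2_r5, measured 3.43 and 4.14 in C57BL/6 and 4.57 and 5.01 in Hivep3-/- iNKT1 cells, and its difference of 1.01 (SE 0.39, limma adjusted p = 0.171) did not pass.

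At Nr4a3 the calls fell in iNKT2 cells. For Nr4a3_r6, C57BL/6 mice gave 3.25 and 3.36 in iNKT1, 2.90 and 3.32 in iNKT2 and 3.61 and 4.29 in iNKT17 cells. Without Hivep3, the region measured 3.69 and 3.90 in iNKT1, 4.38 and 4.44 in iNKT2 and 4.47 and 4.30 in iNKT17 cells. Its difference in iNKT2 cells was 1.30 (SE 0.22, limma adjusted p = 0.00302), and the neighbouring intronic region Nr4a3_r5 rose by 1.07 there (SE 0.25, limma adjusted p = 0.0172). Nr4a3_r1, 5.3 kb before the start, rose by 0.36 (SE 0.12, limma adjusted p = 0.0667). At the promoter, Nr4a3_r3 differed by 0.19, 0.17 and -0.11 in iNKT1, iNKT2 and iNKT17 cells, none of which passed. In iNKT17 cells the largest difference was that of Nr4a3_r9 (0.66), which was too low to be tested.

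Averaged over the regions of a gene, the locus signal of Nr4a1 rose by 0.27 in iNKT1 (SE 0.06, limma adjusted p = 0.0398) and by 0.38 in iNKT2 cells (SE 0.06, limma adjusted p = 0.0067). That of Nr4a2 rose by 0.79 in iNKT1 cells (SE 0.11, limma adjusted p = 0.00614) and that of Nr4a3 by 0.24 in iNKT2 cells (SE 0.07, limma adjusted p = 0.0648). The Nr4a1 call in iNKT1 cells was lost without C57BL/6 iNKT1 replicate 1 or Hivep3-/- iNKT1 replicate 2, and the Nr4a3 call without any one of the 4 iNKT2 libraries. With the replicate block 5 loci were called in iNKT2 and 1 in iNKT17 cells, counts for which no share of all loci is given. That block called 24.8% and 11.3% of all tested regions in these 2 subsets. Without the block no member was called in iNKT17 cells by limma, with Nr4a1 at 0.19 (SE 0.06, unadjusted p = 0.0124 and adjusted p = 0.186). Over all gene loci 6.15%, 12.4% and 2.54% were called in iNKT1, iNKT2 and iNKT17 cells without the block. Nr4a2 in Hivep3-/- iNKT1 cells (5.40 and 5.46) thus reached a level above those of C57BL/6 iNKT17 cells (4.94 and 5.19). The Hivep3-/- iNKT2 libraries also had less signal at 5 of the 6 iNKT1 markers than the C57BL/6 iNKT2 libraries, with linear means of 2.75 against 13.5 at Nkg7, 6.64 against 28.2 at Ifng, 8.09 against 16 at Xcl1, 19.5 against 23.9 at Tbx21 and 188 against 197 at Il2rb. Klrb1c ran the other way, at 8.03 against 5.65. The part of these markers, and of the counts of low values, in the iNKT2 changes was not tested. In iNKT1 cells the same promoters measured 153 and 153 at Nkg7 and 82.7 and 86.8 at Ifng.

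**Figure D4:**
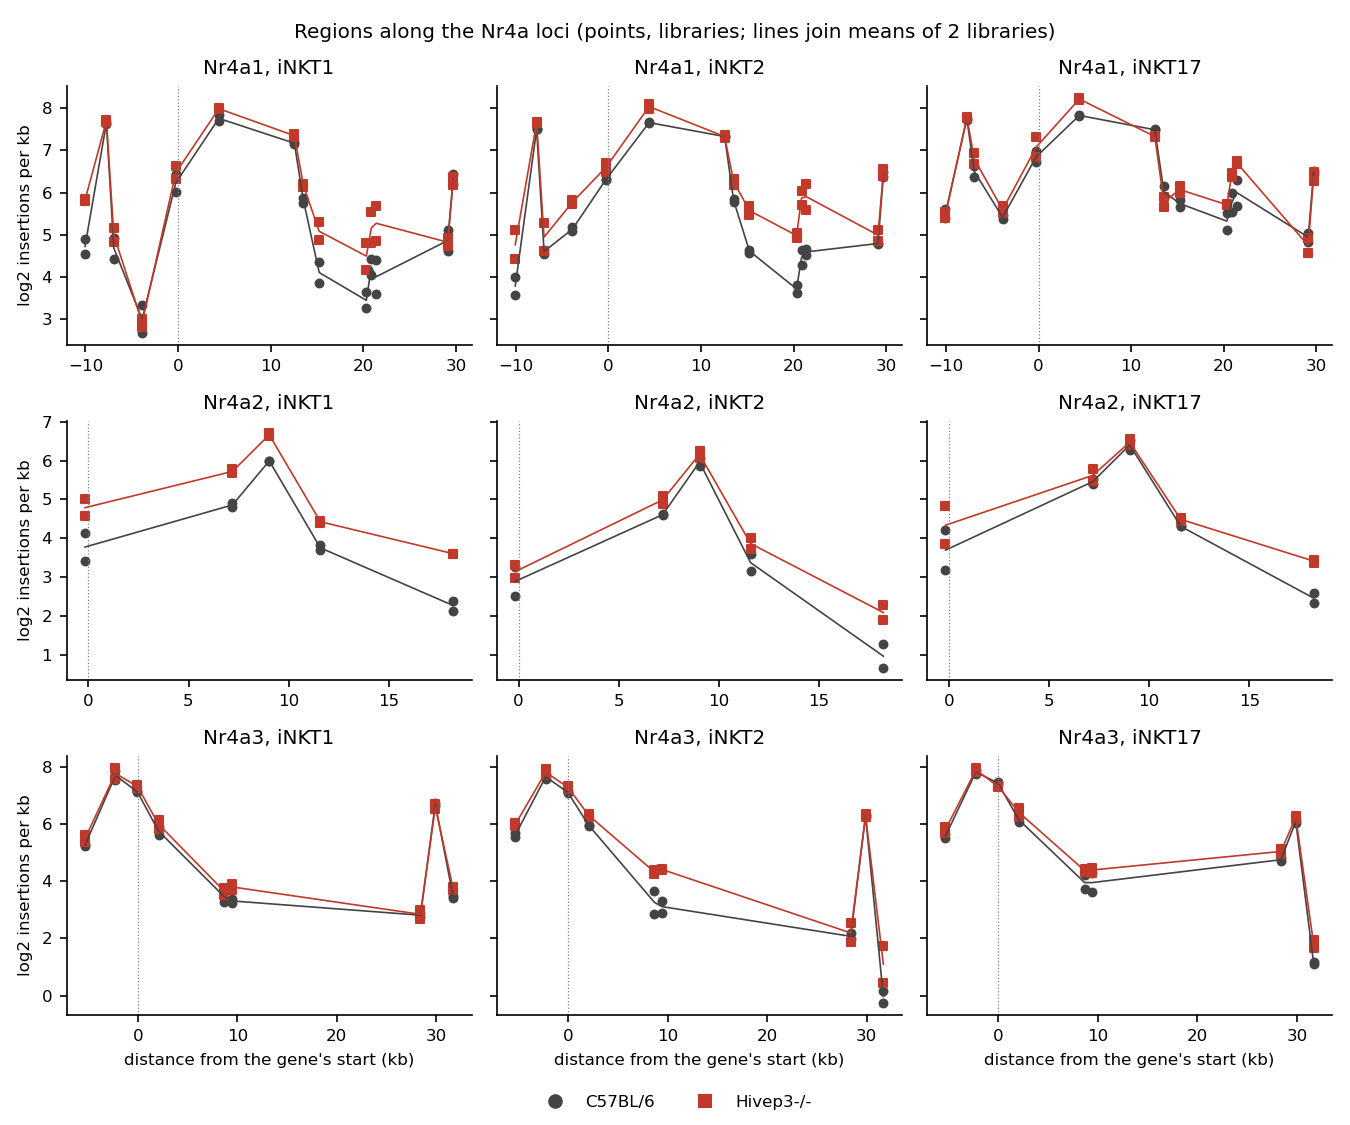
Regions along Nr4a1, Nr4a2 and Nr4a3 by distance from the gene's start (kb, in the direction of transcription), one column per subset, in log2 normalised insertions per kilobase, with circles for C57BL/6 and squares for Hivep3-/- libraries and lines joining the means of 2. The genotypes part between 15.2 and 21.4 kb of Nr4a1 in iNKT1 and iNKT2 cells, along all of Nr4a2 in iNKT1 cells and at 8.68 and 9.44 kb of Nr4a3 in iNKT2 cells.

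Without the fold threshold, of 20 tested Egr regions 0 were called in iNKT1, 1 higher and 2 lower in iNKT2 and 0 in iNKT17 cells. Of all tested regions, 5.49% were higher and 3.93% lower in iNKT1 cells. The shares were 8.26% and 8.16% in iNKT2 and 2.66% and 1.99% in iNKT17 cells. At Egr2 the falls in iNKT2 cells lay at Ado and not at the Egr2 promoter. Egr2_r5 measured 3.74 and 3.71 in iNKT1, 3.75 and 3.72 in iNKT2 and 3.32 and 3.02 in iNKT17 cells of C57BL/6 mice. It measured 3.82 and 3.62 in iNKT1, 3.14 and 2.70 in iNKT2 and 3.29 and 3.23 in iNKT17 cells of Hivep3-/- mice. Egr2_r5 fell by 0.81 (SE 0.20, limma adjusted p = 0.0213) and Egr2_r7 by 0.29 (SE 0.10, limma adjusted p = 0.0768), while the differences of the 4 regions at Egr2 itself were -0.12 to -0.03 and did not pass. Outside iNKT2 cells the largest Egr2 differences were -0.12 at Egr2_r1 in iNKT1 and 0.25 at Egr2_r7 in iNKT17 cells.

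At Egr1, the upstream region Egr1_r3 measured 7.0 and 6.88 in C57BL/6 and 7.26 and 7.19 in Hivep3-/- iNKT2 cells, a rise of 0.28 (SE 0.08, limma adjusted p = 0.0412). Its largest difference in iNKT1 cells, 0.78 at Egr1_r7 (SE 0.31, limma adjusted p = 0.18), and in iNKT17 cells, 0.22 at Egr1_r2 (SE 0.07, limma adjusted p = 0.147), did not pass. At Egr3 no region was called, the largest differences being -0.30 at Egr3_r2 in iNKT1, -0.53 at Egr3_r1 in iNKT2 and 0.19 at Egr3_r1 in iNKT17 cells. At Egr3_r1 the C57BL/6 iNKT2 libraries measured 4.02 and 4.10 and the Hivep3-/- ones 3.84 and 3.21.

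Whether the genotype change itself differed between subsets was tested with interaction terms. At 3-fold limma called 0 member regions in the 3 contrasts, where 3.06%, 1.42% and 1.02% of all tested regions were called for iNKT2 minus iNKT1, iNKT17 minus iNKT1 and iNKT17 minus iNKT2. At an unadjusted p under 0.05 there were 8, 8 and 11 member regions, again without a share of all regions. Without the fold threshold 1, 5 and 2 regions were called, against 10.5%, 3.64% and 3.29%. The genotype difference at Nr4a2_r3 was smaller in iNKT2 (by -0.47) and in iNKT17 cells (by -0.60) than in iNKT1 cells. Those at Nr4a1_r1 (-1.13), Nr4a2_r4 (-0.70), Nr4a1_r8 (-0.61) and Nr4a1_r7 (-0.35) were also lower in iNKT17 than in iNKT1 cells. Compared with iNKT2 cells, iNKT17 cells had a lower difference at Nr4a1_r8 (-0.70) and a higher one at Egr2_r7 (0.54). Without either Hivep3-/- iNKT1 library both counts against iNKT1 cells fell to 0, as did the 1 without C57BL/6 iNKT1 replicate 2, the 5 without C57BL/6 iNKT1 replicate 1, and the 2 without either C57BL/6 iNKT2 library, C57BL/6 iNKT17 replicate 1, Hivep3-/- iNKT2 replicate 1 or Hivep3-/- iNKT17 replicate 2. The 5 fell to 1 without either C57BL/6 iNKT17 library or Hivep3-/- iNKT17 replicate 1, and to 3 without either C57BL/6 iNKT2 library or Hivep3-/- iNKT17 replicate 2. The share of all tested regions dropped too. Without Hivep3-/- iNKT1 replicate 1 or 2 it was 5.25% or 4.76% for iNKT2 minus iNKT1 and 1.37% or 1.14% for iNKT17 minus iNKT1. Without C57BL/6 iNKT2 replicate 1 or 2 it was 1.13% or 1.05% for iNKT17 minus iNKT2. The call of Egr2_r7 was lost without any one of the 12 libraries. With the mouse number as a block within each genotype, which the titles share between subsets, 9, 9 and 10 member regions were called, where 18.4%, 8.52% and 9.3% of all tested regions were.

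Other genes of the pathway were listed for comparison: the co-repressor genes Nab1 and Nab2 with Egr4, 9 genes of factors that act on these promoters, and 14 reported targets. Of their 347, 363 and 345 tested regions, 3 were called higher and 6 lower at 3-fold in Hivep3-/- iNKT1 cells, 3 higher and 2 lower in iNKT2 cells, and 0 in iNKT17 cells. Without the fold threshold, at an adjusted p under 0.1 by limma, 18 were higher and 54 lower in iNKT1, 28 and 33 in iNKT2, and 18 and 12 in iNKT17 cells, beside the shares of all tested regions given above. Of the 54 lower in iNKT1 cells, 45 belonged to Zbtb16 alone, where 68 regions were tested. In iNKT1 cells the 6 lower regions all belonged to Zbtb16, and the widest fall was at chr9:48744933-48745432, by 2.23 (SE 0.29, limma adjusted p = 0.000559), with 3.83 and 3.81 in C57BL/6 and 1.37 and 1.81 in Hivep3-/- libraries. Of the higher ones, those at Ikzf2, which encodes Helios, rose by 3.10 (SE 0.52) and 1.59 (SE 0.25). The first measured 0.15 and 0.06 in C57BL/6 and 3.10 and 3.32 in Hivep3-/- libraries. The other, at Mef2d, rose by 1.61 (SE 0.41, limma adjusted p = 0.0327). It was weak, at 1.11 and 1.34 in C57BL/6 and 2.62 and 3.05 in Hivep3-/- libraries. No other of the 11 tested Mef2d regions was called at any fold, and their median change was 0.01. In iNKT2 cells all 5 were at Ikzf2, with changes of 2.54, 2.20, 1.81, -1.79 and -1.64. The Srf, Elk and Nfat genes had no region called at 3-fold between genotypes.

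Over the 12 libraries, the locus signal of each member was compared with that of 10008 other genes with at least 3 regions, as a description. The genes most like Nr4a1 were Meox1 (Pearson r = 0.976), Art3 (0.974) and Gadd45b (0.965), and those most like Nr4a2 were Arhgap27 (0.947), Hephl1 (0.897) and Rara (0.897). For Nr4a3 the first was Nr4a1 itself (0.913), followed by Rab21 (0.912) and Fosl2 (0.907). Egr2 was most like Slc26a3 (0.978), Card14 (0.971) and Rin3 (0.964), and Egr3 most like Mfsd2a (0.971), Limk1 (0.969) and Ccdc57 (0.967). The flat Egr1 was most like Htra4 (0.903), Rnf139 (0.898) and Zbtb25 (0.864). The 12 points share subset and genotype in pairs, and libraries of a subset move together at many genes.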

How the data were processed

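Omni-ATAC-seq was made from sorted thymic iNKT1, iNKT2 and iNKT17 cells of C57BL/6 and Hivep3-/- mice, 2 libraries per group and 12 in all. Reads were trimmed with Trimmomatic 0.39, aligned to mm10 and passed to the ENCODE ATAC-seq pipeline by the authors, who merged peaks into 500 bp regions, left out chromosome Y and blacklisted regions, and deposited 63309 regions as log2 normalised insertions per kb (voom). Read counts were not used here, so depth and counting intervals are unknown, and the number of distinct low values served as a rough guide. The table has 1 column for each library.

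Group means were fitted to the deposited log2 values of all 12 libraries with limma 3.58.1 (trended empirical Bayes, 6 residual and 7.17 prior degrees of freedom) in R 4.3.3. A region was tested where its linear mean reached 5 in 1 or both of the groups compared, p-values were adjusted over them within each comparison (Benjamini-Hochberg), and calls required an adjusted p under 0.1, with or without a 3-fold change. With 2 against 2 libraries an exact permutation test cannot go below p = 0.333, so none is given. The fit was tested on simulated data with a fixed seed of 1. Gene bodies came from GENCODE vM21 and sequences and promoter windows from RefSeq on GRCm38.p6. Tables, sequences and figures were made with Python 3.11.15, numpy 2.4.6, pandas 2.3.3, pysam 0.24.0 and matplotlib 3.10.9.

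Regions named were the most open one within 1000 bp of a start site per gene, those called at 3-fold between subsets in both genotypes or between genotypes, and the largest genotype change per gene and subset. Others were named after their values were seen. Pathway genes were named for the 3 regions of largest called change per subset, and others named among them were likewise chosen after their values were seen. The members and lists were chosen with earlier results of these data known. The titles number the mice, so that subsets of 1 genotype with the same number may come from the same mice, and their deviations from the group means correlated at 0.12 to 0.167. These were treated as paired in an alternative for comparisons between subsets. Between genotypes the number is shared without a stated reason, and same-numbered groups of 1 subset correlated at 0.172 (iNKT1), 0.145 (iNKT2) and 0.113 (iNKT17). Same-numbered groups that share neither genotype nor subset correlated at 0.0912 to 0.174, so the correlations do not single out groups of 1 genotype. The sequence of 1 region is not reported here.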

Additional observations from a re-analysis of the deposited data

Results flagged for a closer look

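The genotype change (Hivep3-/- minus C57BL/6) differed between subsets by the interaction term in 8 cases, each at an adjusted p under 0.1 by limma. Compared with iNKT1 cells, the change of Nr4a2_r3 was lower by -0.47 in iNKT2 (adjusted p = 0.0874) and by -0.60 in iNKT17 cells (adjusted p = 0.0687). In iNKT17 relative to iNKT1 cells the change was also lower at Nr4a2_r4 (-0.70, adjusted p = 0.0793), Nr4a1_r1 (-1.13, adjusted p = 0.079), Nr4a1_r7 (-0.35, adjusted p = 0.058) and Nr4a1_r8 (-0.61, adjusted p = 0.0749). In iNKT17 relative to iNKT2 cells it was higher at Egr2_r7 (0.54, adjusted p = 0.0778), a call lost without any one of the 12 libraries, and lower at Nr4a1_r8 (-0.70, adjusted p = 0.0507). At Nr4a1_r7 and Nr4a1_r8 the single changes had opposite signs in the subsets, 0.18 and 0.36 in iNKT1 against -0.17 and -0.25 in iNKT17 cells. Of these only the rise of Nr4a1_r8 in iNKT1 cells was itself called (limma adjusted p = 0.0803), and neither iNKT17 value was.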

How the results depend on the processing

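The 27 counts of called regions or loci were recomputed under the alternatives, and 428 of 510 values stayed within 1.5 times the reported one. With a pseudocount of 5, which shrinks the folds of weak regions, the 3-fold subset counts fell to 1, 3 and 3 in C57BL/6 (iNKT2 minus iNKT1, iNKT17 minus iNKT1, iNKT17 minus iNKT2) and to 1 for iNKT2 minus iNKT1 in Hivep3-/-. The interaction counts rose to 4 for iNKT2 minus iNKT1 and 4 for iNKT17 minus iNKT2, and a pseudocount of 1 gave 3 for the first. A 2-fold threshold gave 10 for iNKT17 minus iNKT2 in C57BL/6, 8 for iNKT17 minus iNKT1 in Hivep3-/-, 4 and 5 between genotypes in iNKT1 and iNKT2 cells, and 1 for the iNKT17 minus iNKT1 interaction. These 2-fold counts have no share of all regions beside them. With the replicate block, 17 regions were higher in Hivep3-/- iNKT1 cells, 7 were higher and 2 lower in iNKT17 cells, 9, 9 and 9 had a differing genotype change (9, 9 and 10 with the block within genotype), and 5 and 1 loci were called between genotypes in iNKT2 and iNKT17 cells. The block moved no other count by over 1.5 times. Between genotypes the number is not known to mark shared mice. The mean of log2 values gave 4 loci for iNKT2 minus iNKT1 in C57BL/6 and 4 between genotypes in iNKT2 cells. The loci counted with the block or with this mean have no share of all loci beside them. The cause of these shifts was not tested.

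Leaving out each library in turn, the 3-fold counts ranged over 2 to 2, 5 to 9 and 5 to 8 in C57BL/6 and 2 to 4, 4 to 6 and 3 to 5 in Hivep3-/- cells, where the 2 came without Hivep3-/- iNKT1 replicate 2. Between genotypes they ranged over 0 to 1, 0 to 1 and 0 to 0 in iNKT1, iNKT2 and iNKT17 cells. The higher counts at any fold ranged over 3 to 12, 8 to 16 and 1 to 2, and the lower ones over 0 to 0, 0 to 2 and 0 to 0. Over all tested regions, the share called in either direction ranged over 2.95% to 10.9%, 7.82% to 19% and 0.846% to 5.04%. The interaction counts ranged over 0 to 3, 0 to 5 and 0 to 2. The called loci ranged over 1 to 2, 1 to 5 and 3 to 4 between subsets and 1 to 2, 1 to 2 and 0 to 0 between genotypes. A lone library was assumed to vary like the other groups. Of 1324 values of 72 single regions and loci, 145 lost their call and 0 reversed. Only called results and results of the 6 named subset regions were entered. Leaving out a library of a group not compared cannot move the change itself, so no reversal was possible there. The table gives no depth, so what depth limits could not be set.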

Other observations

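The replicate number of the titles ran through some member regions in all 6 groups, which was noticed after the values were seen. Replicate 2 exceeded replicate 1 in each of the 6 groups in 7 of the 48 member regions (14.6%, against 7.25% of all regions), and the reverse held in 3 (6.25%, against 7.51%). At Nr4a2_r5, the promoter at the gene's start, replicate 2 was higher by 0.71 on average (0.32 to 1.02), where iNKT1 cells had a genotype difference of 1.01, iNKT2 cells of 0.25 and iNKT17 cells of 0.64. At Egr1_r7 the mean was 0.52 (0.13 to 0.98) and at Egr1_r6 0.40 (0.19 to 0.60). What the number marks is not given in the sources used here.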
